A study of Rattus norvegicus with 12 samples.

Results

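The misc_RNA transcripts are the features of the raw count tables whose Ensembl rat transcript name begins with ENSRNOT and whose type is given as misc_RNA. They numbered 83 of the 3655 features listed in the series. The table of the water and EGME libraries listed 70 of its 3280 features under this type, and the table of the oil and CBZ libraries listed 59 of 1709. Both tables shared 46 of the 83, while 24 were listed only in the first and 13 only in the second. The members were taken by name and type, with earlier results of these data known, and the most counted was set apart from the rest.

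Ensembl uses the type misc_RNA for small structured non-coding RNAs that fall outside its other classes. In mammals these include Y RNAs, which bind the Ro60 protein and are known for the abundance of their fragments in serum and in extracellular vesicles, the 7SK RNA that restrains transcription elongation, the RNA of the signal recognition particle, and vault RNAs. Genomes hold many near-identical pseudogene copies of such RNAs, so that a short fragment can match several annotated transcripts. Which of these RNAs each transcript is was not known here, because 0 of the 83 identifiers matched the RefSeq gene table that was available, and the members are called by their identifiers.

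Serum vesicles of male Sprague-Dawley rats aged 9 weeks were profiled by small RNA sequencing in 12 libraries, 3 in each of 4 groups. The EGME rats received 1 oral dose of 2000 mg/kg ethylene glycol monomethyl ether, a glycol ether solvent toxic to the testis, in 10 mL/kg of water, and their controls received the water alone. The CBZ rats received 1 oral dose of 400 mg/kg of a second testicular toxicant, called CBZ in the labels, in 5 mL/kg of corn oil, and their controls received the oil alone. Blood was drawn 24 h after dosing, and vesicles were pelleted at 208000 g from 2.7 mL of serum, a step that also collects RNA-carrying protein particles. The labels number the libraries without saying that each came from its own rat, and each p-value is therefore measured against library-to-library spread that may be technical.

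Assigned counts ranged from 608892 to 1235814 in the EGME and water libraries and from 196460 to 598200 in the CBZ and oil libraries. Oil library 2 stood apart, with the lowest total and 26.7% rRNA fragments, against 5.03% in oil library 1 and 1.67% in oil library 3, and the results that rest on it are given with and without it. A count of 0 allowed a level of up to 3 counts, which was 3.06 to 14.9 CPM (counts put on the scale of 1 shared library size) after adjustment by the trimmed mean of M-values (TMM). The tables list no protein-coding transcripts, so protein markers of vesicles could not be checked. The listed blood-cell and liver miRNAs were all found, and their sums are given as CPM of the mature miRNA counts alone. The 5 red blood cell miRNAs summed to 92582 to 123580 with EGME and 74350 to 103092 with water, and to 74600 to 94006 with CBZ and 74587 to 131557 with oil. The 3 leukocyte miRNAs summed to 3109 to 4256 with EGME and 4855 to 5427 with water, and to 2856 to 4294 with CBZ and 4177 to 6107 with oil. The 3 platelet miRNAs summed to 18129 to 20726 with EGME and 14334 to 16524 with water, and to 34810 to 49553 with CBZ and 20596 to 36246 with oil. The 2 liver miRNAs summed to 4952 to 9296 with EGME and 3813 to 8356 with water, and to 7154 to 17509 with CBZ and 4109 to 7855 with oil. None of these miRNAs was at 0 in any library. The leukocyte list was miR-223-3p, miR-142-3p and miR-150-5p, and the platelet list was miR-126a-3p, miR-191a-5p and miR-24-3p. A sum does not show whether its members moved together. Between EGME and water the leukocyte and platelet sums did not overlap. Of all 330 features tested there, 32 were higher and 29 lower with EGME without overlap. The part of these cell sources in the values below was not tested.

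The class was made up almost wholly of 1 transcript. Of the 2648752 counts given to misc_RNA over the 12 libraries, 2638875 belonged to ENSRNOT00000090410.1 and 9877 to the other 82 transcripts together. The dominant transcript held 99.7% to 99.9% of the misc_RNA counts in the EGME libraries and 99.6% to 99.8% in the water libraries. It held 98.9% to 99.2% in the CBZ libraries, against 99.4% in oil library 1, 96.5% in oil library 2 and 99.6% in oil library 3. Counts were not divided by transcript length, which the tables do not give, so a ratio of counts between transcripts is a ratio of assigned counts and not of molecules.

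Between EGME and water libraries the dominant transcript had its highest shares of the series in the treated group. It had 313256, 532313 and 400424 counts in EGME libraries 1, 2 and 3, against 350167, 293351 and 213137 in water libraries 1, 2 and 3. These counts were 51.4%, 43.1% and 46.1% of the assigned counts with EGME, and 39.2%, 30.2% and 24.8% with water. Every EGME library lay above every water library. The mean share was 46.9% ± 4.24 with EGME and 31.4% ± 7.25 with water (SD, n = 3 libraries each), a difference of 15.5 percentage points with a two-sided exact permutation p of 0.1, the smallest that 3 libraries against 3 can give. Exact 95% binomial (Clopper-Pearson) intervals were narrow at this depth, from 51.3% to 51.6% for EGME library 1 and from 24.7% to 24.9% for water library 3, and cover counting error only.

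**Figure D1:**
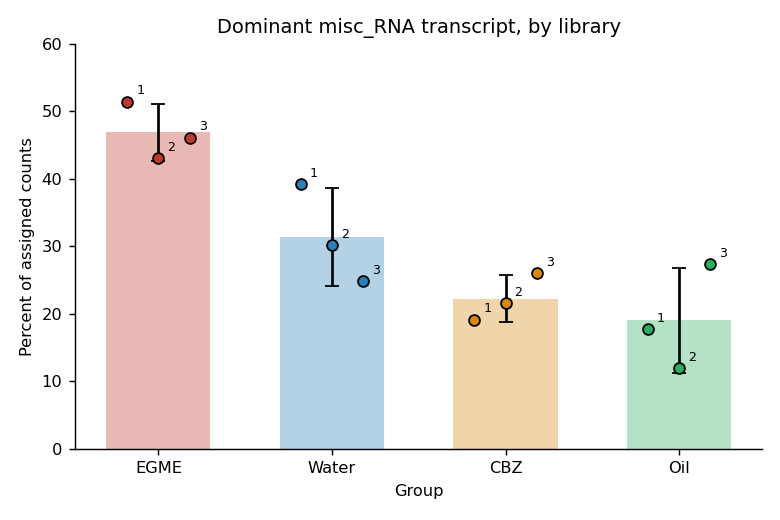
Share of ENSRNOT00000090410.1 in the assigned counts (y axis, percent) by group (x axis), with a point for each numbered library, bars at the group mean and error bars of 1 SD (n = 3). The EGME libraries sit between 43.1% and 51.4%, all above the water libraries, while the CBZ libraries at 19.1% to 26.1% lie inside the range of the oil libraries.

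A share is a relative measure, and the same reads were therefore set against other parts of the library. Per mature miRNA count there were 1.96, 2.79 and 1.64 counts of the dominant transcript in EGME libraries 1, 2 and 3, against 1.53, 1.72 and 1.37 in water libraries 1, 2 and 3. On this ratio the groups overlapped, since EGME library 3 lay below water library 2 (exact permutation p = 0.2). With tRNA fragments left out of the total, which were 13.8% to 30.0% of the counts with EGME and 27.7% to 45.6% with water, the mean share was higher with EGME by 8.18 percentage points (exact permutation p = 0.1). With near-identical copies of every class counted once, the mean share was higher with EGME by 10.3 percentage points (exact permutation p = 0.1). As a TMM-scaled level the transcript stood at 446332, 629841 and 409066 CPM with EGME and at 364007, 316189 and 227006 CPM with water. The quasi-likelihood test of edgeR, fitted across all 330 features that passed the count filter, gave a log2 fold change of 0.71 (SE 0.48) at a Benjamini-Hochberg adjusted p of 0.442. The separation of the libraries on the share and on the TMM scale was thus not past the threshold of 0.05 in the fit across features. In RNA from a vesicle pellet, fewer vesicles of a source and less RNA per vesicle cannot be told apart.

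Between CBZ and oil libraries the dominant transcript showed no call and overlapping libraries. Its counts were 84808, 88504 and 105759 in CBZ libraries 1, 2 and 3, against 69619, 23561 and 163976 in oil libraries 1, 2 and 3. The shares were 19.1%, 21.5% and 26.1% with CBZ and 17.7%, 12.0% and 27.4% with oil. The oil libraries enclosed all 3 CBZ libraries, with the lowest and the highest share of the comparison both in the vehicle group. The mean share was 22.2% ± 3.51 with CBZ and 19.0% ± 7.79 with oil (SD, n = 3 each, exact permutation p = 0.5). The edgeR log2 fold change was -0.00 (SE 0.39, adjusted p = 0.996), and its sign changed under several of the alternatives. Without oil library 2 the difference in mean share was -0.326 percentage points and the edgeR log2 fold change -0.29 (adjusted p = 0.533).

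The EGME difference in share was not shown to differ from the CBZ difference. The first minus the second was 12.3 percentage points, with an exact permutation p of 0.21 when labels were permuted within each comparison. That permutation takes neither toxicant to have an effect, so it cannot decide whether the effects are equal. The interaction contrast of edgeR, fitted over all 12 libraries on features named in both tables, gave a log2 value of 0.77 for the dominant transcript (SE 0.59, adjusted p = 0.468), and 1.04 without oil library 2 (edgeR adjusted p = 0.363).

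The dominant transcript had more counts than any other feature in 11 of the 12 libraries. The next feature in every EGME and every water library was miR-148a-3p, a miRNA abundant in liver and pancreas, and the dominant transcript exceeded it 6.73, 7.52 and 4.89 times with EGME and 4.26, 5.5 and 4.19 times with water. In the 3 CBZ libraries and in oil library 1 the next feature was piR-63429, a small RNA annotated as a piRNA, and the dominant transcript exceeded it 2.31, 2.67 and 3.54 times with CBZ and 1.41 times in oil library 1. In oil library 3 it exceeded miR-148a-3p 3.01 times. Oil library 2 was the exception, with 23561 counts of the dominant transcript and 24930 of miR-148a-3p. Among the 327 features tested in all 12 libraries, the profiles nearest to the dominant transcript were those of miR-30a-3p, miR-30a-5p and miR-23b-3p. The root mean square differences were 0.32, 0.38 and 0.39 between centred log2 CPM values. Centring was over all 12 libraries, so differences between the EGME and water libraries and the CBZ and oil libraries enter this likeness. It does not show a shared response to treatment.

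The other 82 transcripts together held 1018, 751 and 1235 counts in EGME libraries 1, 2 and 3, against 898, 645 and 838 in water libraries 1, 2 and 3. This was 0.167%, 0.0608% and 0.142% of the assigned counts with EGME, and 0.10%, 0.0665% and 0.0976% with water. EGME library 2 was the lowest of the 6 and the other EGME libraries the highest, so the groups overlapped (exact permutation p = 0.4). In the other comparison they held 930, 911 and 824 counts in CBZ libraries 1, 2 and 3, against 388, 850 and 589 in oil libraries 1, 2 and 3. This was 0.210%, 0.222% and 0.203% of the assigned counts with CBZ, and 0.0988%, 0.433% and 0.0985% with oil. The CBZ libraries lay close together, above oil libraries 1 and 3 and below oil library 2 (exact permutation p = 1). Without oil library 2 the CBZ mean was higher by 0.113 percentage points (exact permutation p = 0.1, the smallest that 3 libraries against 2 can give). Without EGME library 2 the EGME mean was likewise higher than water, by 0.0666 percentage points (exact permutation p = 0.1). Each time the library left out was the 1 against the order of the rest. The lack of overlap was thus fixed by that choice, and no conclusion is drawn from it.

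**Figure D2:**
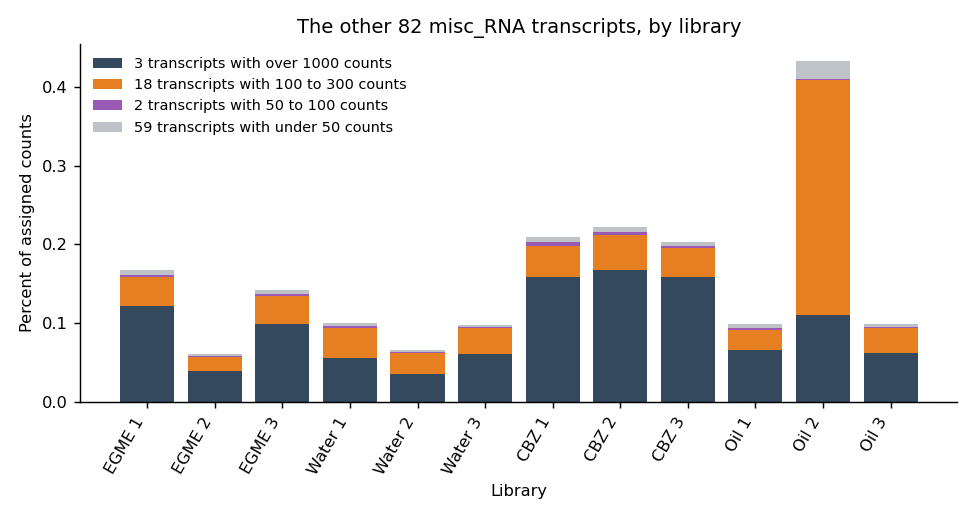
Share of the assigned counts (y axis, percent) held by the other 82 misc_RNA transcripts in each library (x axis), stacked by how many counts a transcript had over all 12 libraries. Oil library 2 reaches 0.433%, mostly from the 18 transcripts with 100 to 300 counts, while in the other libraries the 3 transcripts with over 1000 counts make up more than any other tier.

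By their totals over the 12 libraries the 82 fell into tiers, which were set after the counts were seen and are used only to describe them. The 3 transcripts with over 1000 counts, ENSRNOT00000086005.1, ENSRNOT00000090994.1 and ENSRNOT00000092062.1, held 6321 counts. A tier of 18 transcripts had 133 to 276 counts each and 3033 in all. ENSRNOT00000087155.1 and ENSRNOT00000087136.1 had 84 and 74 counts. The remaining 59 transcripts had at most 36 counts each and 365 in all, and 25 of them rested on a single read. Of the 83 transcripts, 27 were detected in every library.

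The count filter left 23 of the 70 transcripts listed for EGME and water, and 9 of the 59 listed for CBZ and oil, all 9 among the 23. For EGME against water, 0 of the 23 were called by edgeR, and 0% of all 330 features were. At an unadjusted p under 0.05 there was 1 of the 23, against 17.9% of all features, and DESeq2 called 0 of the 23, against 6.06% of all features. The libraries did not overlap for 2 of the 23, both higher with EGME, where 9.7% of all features were higher without overlap. The median log2 fold change over the 23 was -0.02, the same as over all features at -0.02, with 11 above and 12 below 0. For CBZ against oil, 0 of the 9 were called by edgeR, and 0% of all 244 features were. At an unadjusted p under 0.05 there were 2 of the 9, against 26.2% of all features, and DESeq2 called the same 2, against 9.84% of all features. The libraries did not overlap for 2 of the 9, both higher with CBZ, where 19.7% of all features were higher without overlap. Those 2 are the near-identical pair ENSRNOT00000090994.1 and ENSRNOT00000092062.1. With near-identical copies of every class counted once, 6 were tested and 1 had an unadjusted p under 0.05. ENSRNOT00000092062.1 was then merged, while ENSRNOT00000086912.1 and ENSRNOT00000090949.1 no longer passed the count filter. The median log2 fold change over the 9 was -1.29 and over all features 0.12, with 3 above and 6 below 0. Some of the 9 passed the filter only through oil library 2, so this median is partly fixed by the filter. Without oil library 2 the median over the same 9 turned positive, at 0.49 with 8 above and 1 below 0. Over all 10 tested in that fit it was 0.38, with 8 above and 2 below 0, while the median over all features was 0.09. For the difference between the comparisons, 0 of 23 were called, as were 0% of all 327 features, and DESeq2 called 0, against 9.79% of all features. An unadjusted p under 0.05 was found for 0 of the 23, against 24.8% of all features.

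ENSRNOT00000086005.1 was the second most counted of the class, and its EGME libraries lay above its water libraries. It had 369, 245 and 439 counts in EGME libraries 1, 2 and 3, against 254, 171 and 230 in water libraries 1, 2 and 3. On the TMM scale this was 526, 290 and 448 CPM with EGME and 264, 184 and 245 CPM with water. The lowest EGME library, library 2, exceeded the highest water library by less than the spread within the EGME group. The mean was 421 ± 120 CPM with EGME and 231 ± 41.6 CPM with water (SD, n = 3 each), with a log2 fold change of 0.87 (SE 0.36) that did not pass in edgeR (adjusted p = 0.223). Without EGME library 2 the fold change was 1.09 on the log2 scale and passed (adjusted p = 0.0431), in a fit that called 16.5% of all features.

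In the oil comparison the same transcript had 358, 304 and 311 counts in CBZ libraries 1, 2 and 3, against 139, 161 and 178 in oil libraries 1, 2 and 3. On the TMM scale this was 764, 718 and 685 CPM with CBZ and 386, 801 and 340 CPM with oil. Oil library 2 was the highest of the 6, and the other oil libraries the lowest. The log2 fold change was 0.51 (SE 0.37, edgeR adjusted p = 0.370). Without oil library 2 it was 0.99 (edgeR adjusted p = 0.0377), in a fit that called 10.1% of all features.

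ENSRNOT00000090994.1 and ENSRNOT00000092062.1 had nearly the same counts. Their counts differed by at most 7 in any library, and the root mean square difference of their centred log2 CPM was 0.04. The rule for near-identical copies merged them for CBZ and oil but not for EGME and water. There it merged ENSRNOT00000082659.1 with ENSRNOT00000082705.1. Whether ENSRNOT00000090994.1 and ENSRNOT00000092062.1 share reads was not tested, and each count of 2 transcripts for CBZ given above is this pair. ENSRNOT00000090994.1 had 175, 192 and 166 counts in CBZ libraries 1, 2 and 3, against 62, 28 and 94 in oil libraries 1, 2 and 3, and ENSRNOT00000092062.1 had 168, 193 and 166 with CBZ and 60, 27 and 98 with oil. On the TMM scale ENSRNOT00000090994.1 stood at 374, 453 and 366 CPM with CBZ and at 172, 139 and 180 CPM with oil. Every CBZ library was above every oil library, and the means were 398 ± 48.5 CPM with CBZ and 164 ± 21.4 CPM with oil (SD, n = 3 each).

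The log2 fold change for CBZ was 1.27 for ENSRNOT00000090994.1 (SE 0.21) and 1.26 for ENSRNOT00000092062.1 (SE 0.23). Neither passed in edgeR, with adjusted p = 0.0773 for both, and with copies counted once the pair had a log2 fold change of 1.21 (edgeR adjusted p = 0.112). Both passed with the DESeq2 Wald test (adjusted p = 0.000779 and 0.00130), without scaling (edgeR adjusted p = 0.0347 for both, in a fit that called 1.64% of all features) and without oil library 2 (edgeR adjusted p = 0.0291 and 0.0323). The fold change stayed between 1.09 and 1.47 for both transcripts over the alternatives run. With EGME, ENSRNOT00000090994.1 had 184, 118 and 209 counts in libraries 1, 2 and 3, against 124, 84 and 148 in water libraries 1, 2 and 3. On the TMM scale this was 262, 140 and 214 CPM with EGME and 129, 90.5 and 158 CPM with water, where EGME library 2 fell below water library 3. The log2 fold change was 0.70 for this transcript and 0.74 for ENSRNOT00000092062.1 (SE 0.36 each, edgeR adjusted p = 0.295 and 0.274). The EGME log2 fold change minus the CBZ one was -0.45 and -0.41 (edgeR adjusted p = 0.610 and 0.649).

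**Figure D3:**
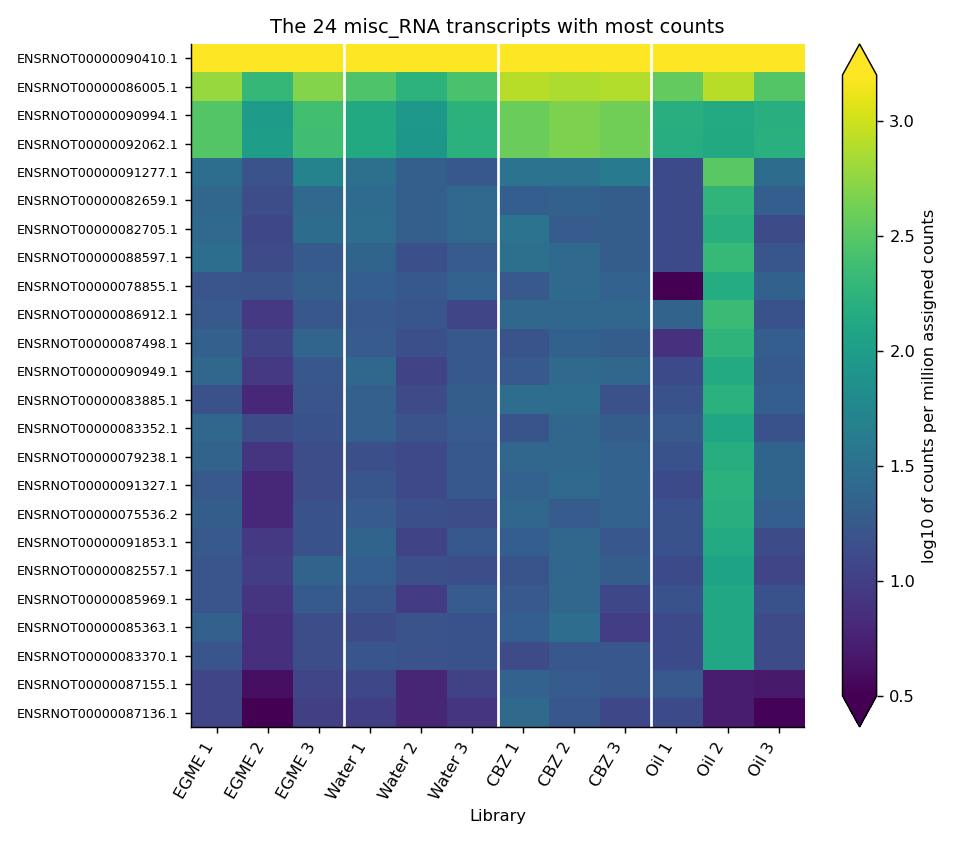
Level of the 24 misc_RNA transcripts with most counts (rows, most at the top) in each library (columns), as log10 CPM of the assigned counts without TMM scaling, with colours capped at both ends of the scale. The pair ENSRNOT00000090994.1 and ENSRNOT00000092062.1 shows 1 pattern, and the 18 rows under it are brightest in oil library 2.

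The 18 transcripts of the next tier had low counts in every library. Their lowest, median and highest counts were 9, 12.5 and 18 in EGME library 1, 8, 11 and 19 in EGME library 2 and 12, 15 and 44 in EGME library 3. In the water libraries these were 12, 18 and 28 in library 1, 9, 14 and 20 in library 2, and 10, 15 and 23 in library 3. They were 6, 9 and 15 in CBZ library 1, 7, 10 and 14 in CBZ library 2 and 4, 8 and 17 in CBZ library 3. In the oil libraries they were 1, 5 and 9 in library 1, 23, 30.5 and 64 in library 2, and 7, 10.5 and 17 in library 3. The tier was set by totals over these libraries, so the spread between its members is partly fixed by that choice. In EGME library 3 and oil library 2 the highest count belonged to ENSRNOT00000091277.1, with 44 and 64 counts. Whether these transcripts share reads was not tested, as the rule for reads that match several transcripts is not given in the sources used here.

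The 18 together held 178, 183 and 150 counts in CBZ libraries 1, 2 and 3, against 95, 586 and 193 in oil libraries 1, 2 and 3. This was 402, 445 and 369 CPM with CBZ, without TMM scaling, and 242, 2983 and 323 with oil. Oil library 2 was thus apart from the other 5, and each of the 18 had more counts there than in oil library 1 and oil library 3. The same library was the one with 26.7% rRNA fragments, and its mitochondrial rRNA fragments were 0.422% of the counts, against 0.0820% and 0.0364% in oil libraries 1 and 3. Its snRNA fragments were 0.155%, against 0.0262% and 0.0214%, and its snoRNA fragments 0.114%, against 0.0400% and 0.0353%. Its tRNA fragments and piRNAs held smaller shares than in oil libraries 1 and 3. The part of these class differences in the misc_RNA values was not tested. In the other comparison the 18 held 379, 180 and 362 CPM in EGME libraries 1, 2 and 3, against 378, 270 and 326 in water libraries 1, 2 and 3, and the groups overlapped.

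**Figure D4:**
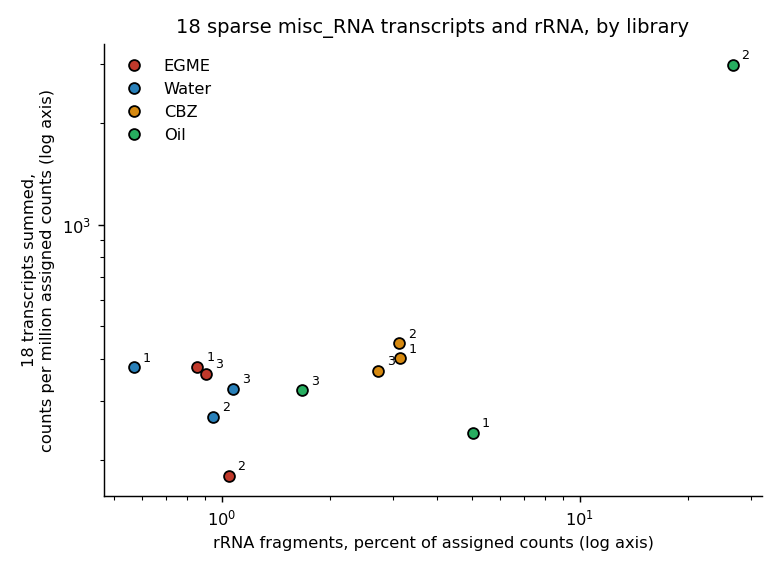
Summed level of the 18 transcripts (y axis, CPM without TMM scaling, log axis) against the share of rRNA fragments (x axis, percent, log axis) in each numbered library, coloured by group. Oil library 2 lies alone at 2983 CPM and 26.7% rRNA, and the other 11 libraries lie between 180 and 445 CPM over 0.567% to 5.03% rRNA.

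With EGME none of the 18 came near a call. All 18 passed the count filter, 7 had a log2 fold change above 0 and 11 below, from -0.50 for ENSRNOT00000083885.1 to 0.49 for ENSRNOT00000091277.1, and the median was -0.05 (edgeR adjusted p from 0.510 to 0.999). ENSRNOT00000083885.1 had 9, 8 and 14 counts in EGME libraries 1, 2 and 3, against 19, 13 and 17 in water libraries 1, 2 and 3. No difference was detectable for these transcripts at this depth.

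With CBZ the filter kept 5 of the 18, and all 5 fold changes were below 0 only while oil library 2 was in the fit. All of these except ENSRNOT00000091277.1 passed the filter only because oil library 2 was among the libraries that reached it. Their signs in that fit are therefore partly fixed by the filter. ENSRNOT00000086912.1 had the lowest, at -1.78 (SE 1.02), from 11, 10 and 10 counts in CBZ libraries 1, 2 and 3, against 9, 43 and 9 in oil libraries 1, 2 and 3. ENSRNOT00000091277.1 was at -1.75 (SE 1.13), ENSRNOT00000088597.1 at -1.54 (SE 1.07), ENSRNOT00000083885.1 at -1.44 (SE 0.96) and ENSRNOT00000090949.1 at -1.29 (SE 0.91). Their edgeR adjusted p ran from 0.308 to 0.366. Without oil library 2 the sign of all 5 turned, to log2 fold changes of 0.16, 0.49, 0.53, 0.19 and 0.26 in the same order, none past the threshold.

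**Figure D5:**
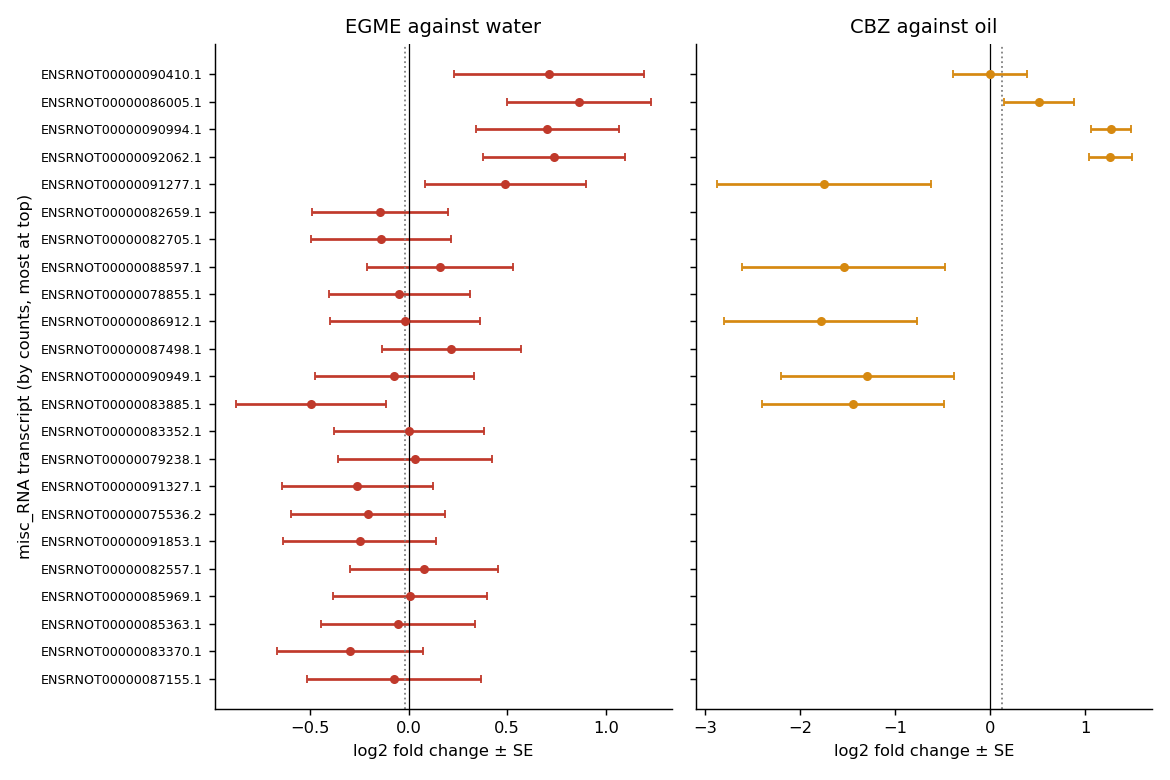
Log2 fold change with its SE (x axis) for the misc_RNA transcripts that passed the count filter (y axis, most counted at the top), for EGME against water on the left and CBZ against oil on the right, with a dotted line at the median of all tested features. The 3 transcripts under the dominant one lie right of 0 in both comparisons, and the 5 sparse transcripts tested for CBZ lie left of 0 with wide errors.

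The other members of that tier were ENSRNOT00000082659.1, ENSRNOT00000082705.1, ENSRNOT00000078855.1, ENSRNOT00000087498.1, ENSRNOT00000083352.1, ENSRNOT00000079238.1, ENSRNOT00000091327.1, ENSRNOT00000075536.2, ENSRNOT00000091853.1, ENSRNOT00000082557.1, ENSRNOT00000085969.1, ENSRNOT00000085363.1 and ENSRNOT00000083370.1. For ENSRNOT00000087498.1 and ENSRNOT00000091277.1 the EGME log2 fold change minus the CBZ one was 2.06 and 2.27 (edgeR adjusted p = 0.259 and 0.264). Both passed without oil library 1, in a fit that called 15.9% of all features. All 18 had a positive value in this contrast, with a median of 1.37, where 197 of all 327 features were positive with a median of 0.24. Without oil library 2 the values of ENSRNOT00000087498.1 and ENSRNOT00000091277.1 were 0.19 and 0.08 (edgeR adjusted p = 0.899 and 0.973), and 5 of the 18 were above 0 and 13 below, with a median of -0.25.

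ENSRNOT00000087155.1 and ENSRNOT00000087136.1 had counts that differed by at most 2 in any library, but too few counts to enter the rule for near-identical copies. ENSRNOT00000087155.1 had 10, 8 and 7 counts in CBZ libraries 1, 2 and 3, against 7, 1 and 3 in oil libraries 1, 2 and 3, and ENSRNOT00000087136.1 had 12, 7 and 5 with CBZ and 5, 1 and 2 with oil. Without TMM scaling ENSRNOT00000087155.1 stood at 17.8, 5.09 and 5.02 CPM in oil libraries 1, 2 and 3, so that at this depth oil libraries 2 and 3 could not be told apart. With EGME, ENSRNOT00000087155.1 had 7, 5 and 10 counts, against 11, 6 and 9 with water, a log2 fold change of -0.08 (SE 0.44, edgeR adjusted p = 0.963).

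Among the 59 rare transcripts the most counted was ENSRNOT00000089892.1, with 36 counts, of which 9 were in oil library 2. No transcript listed in 1 table alone had more than 4 counts. The most counted of these was ENSRNOT00000078132.1, with 4 counts in the EGME and water libraries, followed by ENSRNOT00000077472.1 and ENSRNOT00000083070.1, with 3 counts each in the CBZ and oil libraries. Counts this low are within the limit that a count of 0 allows in the other table or just above it, so presence in 1 table alone was not a detectable difference.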

How the data were processed

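The authors deposited 2 tables of raw counts, whole-number reads per feature, 1 for EGME and water and 1 for CBZ and oil, and 2 tables of normalized signal that are the raw counts times 1 constant per library and hold 0 misc_RNA transcripts. The authors used edgeR, per the submitters' processing notes. Not given in the sources used here are the aligner, the genome build, the annotation release and the rule for multiply matching reads. Libraries were grouped by their titles. Raw counts were tested with edgeR 4.0.16 in R 4.3.3 (robust quasi-likelihood fit after TMM scaling and filterByExpr at 10 counts) over all features of a table, 1 fit per toxicant, with Benjamini-Hochberg adjustment at 0.05. The interaction contrast used the 12 libraries together. Each SE given with an edgeR value is the absolute log2 value divided by the square root of the quasi-likelihood F, and was not estimated directly. Shares were compared by two-sided exact permutation tests. The scripts were tested on simulated counts. Alternatives were other scalings, filters, DESeq2 1.42.0, the replicate block, near-identical copies counted once (within 5 percent or 3 counts in every library, mean of at least 20), leaving out each library and, added after seeing the data, the scaling by the authors' constants. Libraries within a group differed by a chi-square of at least 29.2 per degree of freedom, so none was counted as a repeat deposit. Without molecular identifiers, intervals and floors cover counting error only. By the naming rule the text names the dominant transcript, those passing the filter, the 10 with most counts per table, the 3 with most counts among those in 1 table alone, and the 3 features most like the dominant transcript. The members, lists and tests were chosen with earlier results of these data known. No sequences are shown, as the tables used here pair none with these identifiers.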

Additional observations from a re-analysis of the deposited data

How the results depend on the processing

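The count of misc_RNA transcripts called stayed at 0 for EGME under every alternative except without EGME library 2. There it was 1 of 23, in a fit that called 16.5% of all features, so that leaving out 1 library gave 0 to 1. Of all 330 features, upper quartile scaling called 34, no scaling 27 and the DESeq2 Wald test 20, none of them misc_RNA transcripts. For CBZ the count was 2 of 9 without scaling (1.64% of all features called) and 2 of 9 with the DESeq2 Wald test (9.84%). These were the same near-identical pair each time. It was 0 to 3 when 1 library was left out, with 3 of 10 without oil library 2 (10.1% of all features called). For the difference between the comparisons it was 0 to 2 when 1 library was left out. The 2, of 24 tested, came without oil library 1, where 15.9% of all features were called. The log2 fold change of the dominant transcript for EGME ranged from 0.56 to 1.01 over the alternatives, and from 0.53 to 0.99 with 1 library left out. For CBZ its sign turned without scaling (0.22), with the filter of 10 counts in 3 libraries (0.0105) and with the replicate block (0.10), and it ranged from -0.29 to 0.39 with 1 library left out. Its share differed by 12.2 to 19.4 percentage points for EGME and by -0.326 to 7.38 for CBZ with 1 library left out. The share of the other 82 transcripts for CBZ differed by 0.00156 percentage points, by -0.0467 with rRNA left out of the total, and by -0.0542 to 0.113 with 1 library left out. For EGME it differed by 0.0134 to 0.0666. Upper quartile scaling moved the median log2 fold change of all features for EGME to 0.31, against -0.02 with TMM, and no scaling moved it for CBZ to 0.32, against 0.12, while the dominant transcript was at 1.01 and 0.22 there. The causes were not tested. Same-numbered libraries did not deviate together in every pair, with correlations of 0.46, 0.43 and -0.13 for EGME and -0.22, -0.04 and 0.31 for CBZ, so the numbers were not taken as pairs. The replicate block called 33 features for EGME against 0 without it, and 0 misc_RNA transcripts in either comparison. It left the EGME change of the dominant transcript at 0.71. With 1 library left out, the CBZ fold change ranged from -2.30 to 0.49 for ENSRNOT00000091277.1, from -1.93 to 0.19 for ENSRNOT00000083885.1, from -2.30 to 0.16 for ENSRNOT00000086912.1, from -2.07 to 0.53 for ENSRNOT00000088597.1 and from -1.79 to 0.26 for ENSRNOT00000090949.1, each highest without oil library 2.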
